A study of Mus musculus with 4 samples.

Results

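The genes followed here are 10 core members of the Scribble, Par and Crumbs complexes that set apical-basal polarity in epithelial cells. They were chosen by gene symbol as Scrib, Dlg1, Llgl1 and Llgl2 for the Scribble complex, Pard3, Pard6b and Prkci for the Par complex, and Crb3, Mpp5 and Inadl for the Crumbs complex. All 10 were found once among the 38201 genes of the table. RNA was sequenced from ureteric epithelial cells of E18.5 mouse kidneys, isolated by cell sorting with the fluorescent lectin Dolichos biflorus agglutinin (DBA). There were 2 libraries from Esrp1-/-;Esrp2-/- double knockout (DKO) embryos and 2 from Esrp1+/+;Esrp2-/- controls, and each library held RNA pooled from 3 embryos. Esrp1 and Esrp2 encode splicing regulators of epithelial cells, and because both groups carry the Esrp2 null genotype the comparison is of Esrp1 loss on that background. The question addressed is whether the transcript levels of the polarity machinery differed between these groups.

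An epithelial cell divides its surface into an apical domain facing the lumen and a basolateral domain facing its neighbors and the matrix. The Par and Crumbs complexes act at the apical side and at the tight junction, the Scribble complex acts at the basolateral side, and each side keeps the other out, in part through phosphorylation by atypical protein kinase C. In the ureteric tree and the collecting ducts that arise from it, this arrangement underlies the opening of the lumen and the directed transport of water and ions.

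Levels are given as FPKM per gene (fragments per kilobase of exon, scaled to the mapped fragments of the library), which add up all spliced forms of a gene and do not separate them.

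In mm10 with the GENCODE M21 annotation, the Scribble complex genes lie at chr15:76047158-76069784 (Scrib, minus strand), chr16:31663443-31875129 (Dlg1, plus strand), chr11:60699723-60714186 (Llgl1, plus strand) and chr11:115824049-115855780 (Llgl2, plus strand). The Par complex genes lie on the plus strand at chr8:127063893-127612286 (Pard3), chr2:168081004-168101203 (Pard6b) and chr3:30995747-31052959 (Prkci). The Crumbs complex genes lie on the plus strand at chr17:57059105-57065918 (Crb3), chr12:78748907-78840714 (Mpp5) and chr4:98395785-98719603 (Inadl, named Patj in that annotation). The longest annotated proteins run from 117 residues for Crb3, a small transmembrane protein, to 1834 for Inadl, a large scaffold of repeated PDZ domains. Only Llgl1 and Crb3 share exonic bases with another gene, 64 bases with Flii and 14 with Dennd1c, both on the opposite strand. The locus given in the table is wider than the annotated gene for both of these.

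The libraries differed in ways that touch the comparison. Esrp1, the targeted gene, was at 8.65 and 7.29 FPKM in DKO replicates 1 and 2 and at 27.0 and 31.4 FPKM in control replicates 1 and 2 (log2 fold change -1.81, adjusted p = 0.143). Esrp2, null by genotype in both groups, was listed at 1.35 and 0.52 FPKM in DKO and at 1.72 and 0.80 FPKM in controls. Control replicate 1 was sequenced to about 0.508 times the depth of DKO replicate 1, against 1.09 and 1.10 times for the remaining libraries, as read from the steps between low FPKM values. All 13 markers of ureteric and collecting duct epithelium were detected, and they summed to 1805 and 1921 FPKM in DKO against 1352 and 1795 FPKM in controls. Of the 13, 6 were higher in both DKO libraries than in both controls, 1 was lower and 6 overlapped. The highest of them were Aqp2, a water channel, and Calb1, a calcium-binding protein. Aqp2 differed widely between the controls (165 and 393 FPKM in replicates 1 and 2, against 339 and 374 FPKM in DKO) and weighs on the sum. All 6 leukocyte markers were lower in both DKO libraries than in both controls (summed level 240 to 250 FPKM against 451 to 888 FPKM), with C1qa and Csf1r the highest. The same held for 8 of 8 proximal tubule markers (143 to 172 against 324 to 348 FPKM), with Slc34a1 and Gatm the highest. All 8 stromal markers were higher in both DKO libraries (179 to 310 against 76.3 to 116 FPKM), with Col1a1 and Col3a1 the highest, and 4 of 7 endothelial markers (Plvap, Cdh5, Kdr and Tek) were higher. The most abundant endothelial markers were Plvap and Emcn, and Emcn overlapped between the groups. Of 4 loop of Henle or distal tubule markers, Slc12a3 and Kl were lower, while the most abundant, Slc12a1 and Umod, overlapped. Of 4 podocyte markers only Wt1 was higher, and it and Podxl were the most abundant. Of 4 nephron progenitor markers only Osr1 was higher, while the most abundant, Cited1 and Six2, overlapped. Over all genes tested, both DKO libraries were below both controls for 22.6% and above both for 20.8%. In these bulk libraries, fewer cells of a type and less RNA per cell cannot be told apart, and the part of these other cell types in the values below was not tested.

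All 10 polarity genes were expressed in every library. Their mean levels over the 4 libraries ran from 17.1 FPKM for Mpp5 to 42.1 FPKM for Dlg1, a 2.47-fold range, and each was above the median of 8.27 FPKM over the 18884 genes tested. The order from the top was Dlg1 (42.1 FPKM), Crb3 (36.1), Llgl2 (33.4), Prkci (31.1), Inadl (29.9), Pard3 (28.5), Pard6b (28.5), Scrib (26.4), Llgl1 (22.1) and Mpp5 (17.1). Most neighbors in this order were not separated. Only at its foot, between Scrib and Llgl1 and between Llgl1 and Mpp5, did the ranges over the 4 libraries not overlap. Mpp5 was the lowest of the 10 in each of the 4 libraries. Dlg1 was the highest in 3 of them and Crb3 in control replicate 1. The highest gene exceeded the lowest by 1.98-fold in control replicate 1 and by 2.69- to 2.89-fold in the other libraries. Summed over the Par complex, the level was 85.2 and 89.3 FPKM in DKO and 86.8 and 91.3 FPKM in controls. The Crumbs complex summed to 79.8 and 81.4 FPKM in DKO and to 81.0 and 89.9 FPKM in controls. The Scribble complex summed to 133 and 126 FPKM in DKO and to 109 and 127 FPKM in controls. The group ranges of these sums overlapped for all 3 complexes.

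**Figure D1:**
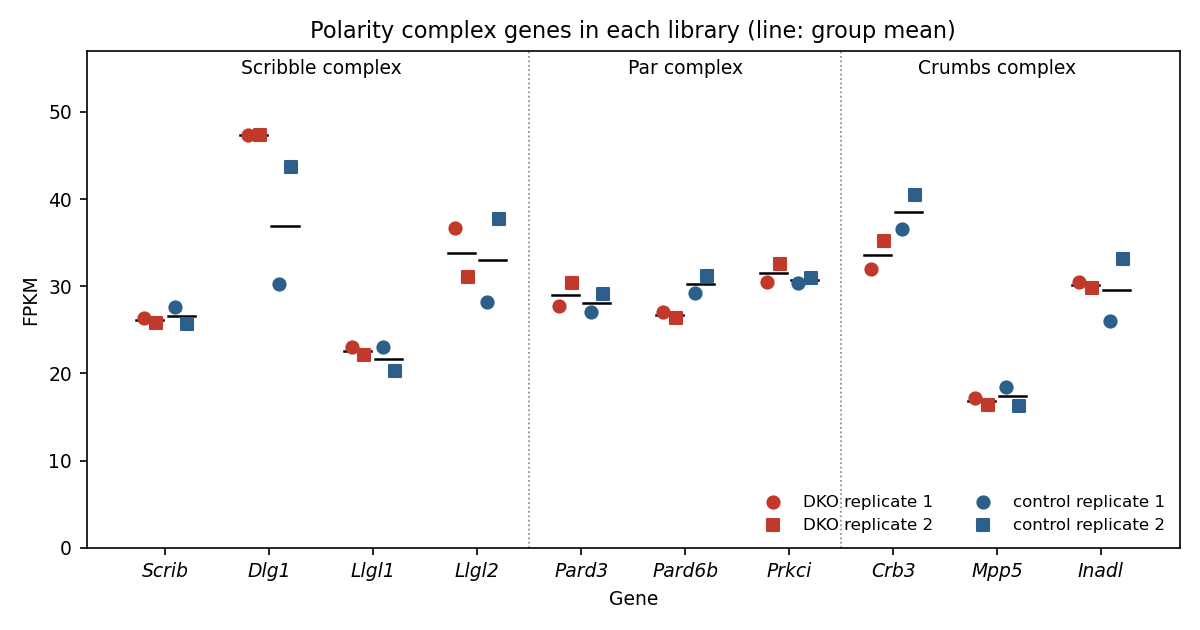
FPKM (vertical axis) of each of the 10 polarity genes (horizontal axis) in the 2 DKO libraries (red) and the 2 control libraries (blue), with circles for replicate 1, squares for replicate 2 and a line at each group mean. The groups overlap for 7 genes, Dlg1 is above both controls in both DKO libraries, and Pard6b and Crb3 are below both.

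The Scribble complex genes were at similar levels in the 2 groups, except for Dlg1, whose lower control library stood apart. Scrib encodes a basolateral scaffold of leucine-rich repeats and PDZ domains. It was at 26.4 and 25.8 FPKM in DKO replicates 1 and 2 and at 27.6 and 25.6 FPKM in control replicates 1 and 2. The groups overlapped within a narrow band, with a log2 fold change of -0.028 (SE 0.11, 95% interval -0.30 to 0.24, adjusted p = 0.933). This and the fold changes below come from limma on log2(FPKM + 0.5), with p-values adjusted over all 18884 genes.

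Dlg1, a membrane-associated guanylate kinase scaffold that works with Scrib, had the largest fold change among the 10. It was at 47.3 and 47.3 FPKM in DKO and at 30.3 and 43.6 FPKM in controls. Both DKO libraries were above both controls, but the controls differed from each other more than either DKO library differed from control replicate 2. The log2 fold change was 0.38 (SE 0.19, 95% interval -0.12 to 0.87, adjusted p = 0.563), a DKO mean 128% of the control mean. Control replicate 1 was also the shallower library, and whether depth played a part was not tested. On the FPKM scale the size of the fold change rested on control replicate 1: without it the log2 fold change was 0.12, and without control replicate 2 it was 0.64. Neither value passed the test, the smallest adjusted p being 0.154, without control replicate 2.

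Llgl1 and Llgl2 are homologs of the fly tumor suppressor lethal giant larvae and are substrates of atypical protein kinase C. Llgl1 was at 23.0 and 22.1 FPKM in DKO and at 23.0 and 20.3 FPKM in controls, with a log2 fold change of 0.059 (95% interval -0.25 to 0.37, adjusted p = 0.867). Llgl2, the form found mainly in epithelia, was at 36.7 and 31.0 FPKM in DKO and at 28.2 and 37.8 FPKM in controls. The controls spanned both DKO values, and the log2 fold change was 0.048 (95% interval -0.42 to 0.51, adjusted p = 0.931).

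The Par complex genes lay close together in the 2 groups. Pard3, the PDZ scaffold that places the complex at the tight junction, was at 27.7 and 30.3 FPKM in DKO and at 27.1 and 29.1 FPKM in controls. Each group spanned part of the other, with a log2 fold change of 0.045 (95% interval -0.24 to 0.33, adjusted p = 0.893). Prkci, the atypical protein kinase C iota that is the enzyme of the complex, was at 30.5 and 32.6 FPKM in DKO and at 30.4 and 31.0 FPKM in controls. Its groups also overlapped, and its log2 fold change was 0.039 (95% interval -0.22 to 0.30, adjusted p = 0.899).

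Pard6b, the adaptor that links the kinase to the GTPase Cdc42, was at 27.0 and 26.4 FPKM in DKO and at 29.3 and 31.2 FPKM in controls. Both DKO libraries were below both controls, by a small amount: the DKO mean was 88.4% of the control mean. The log2 fold change was -0.17 (SE 0.10, 95% interval -0.44 to 0.089, adjusted p = 0.618), which did not pass the test. It shrank to -0.044 after rescaling to TPM.

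Of the Crumbs complex, Crb3 was lower in DKO in every pair of libraries, and the scaffolds were not. Crb3 is the Crumbs protein of most epithelia and anchors the complex in the apical membrane. It was at 32.0 and 35.2 FPKM in DKO and at 36.6 and 40.5 FPKM in controls. The highest DKO value and the lowest control value were closer to each other than the libraries within either group, and the DKO mean was 87.1% of the control mean. The log2 fold change was -0.20 (SE 0.11, 95% interval -0.49 to 0.096, adjusted p = 0.614). It was -0.065 after rescaling to TPM, -0.13 without DKO replicate 1 and -0.12 without control replicate 2.

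Mpp5, also known as Pals1, binds the tail of Crb3 and joins it to Inadl. It was at 17.2 and 16.4 FPKM in DKO and at 18.5 and 16.3 FPKM in controls, so that the controls spanned the DKO libraries. Its log2 fold change was -0.044 (95% interval -0.37 to 0.28, adjusted p = 0.911). Inadl, also known as Patj, is the multi-PDZ protein that ties the complex to the tight junction. It was at 30.5 and 29.8 FPKM in DKO and at 26.0 and 33.1 FPKM in controls. The controls again spanned both DKO values, and the log2 fold change was 0.040 (95% interval -0.34 to 0.42, adjusted p = 0.930).

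Of the 10 polarity genes, 0 were called changed, a call being an adjusted p under 0.05 with at least a 2-fold difference of average FPKM. Over all genes tested, 0.0212% were called, which is 4 genes: Gatm, a proximal tubule enzyme of creatine synthesis, was lower in DKO, and the small nucleolar RNAs SNORA18, SNORA57 and Snora78 were higher. Esrp1, the targeted gene, was itself not called (log2 fold change -1.81, adjusted p = 0.143 by limma). The lack of a call therefore does not show that a gene was unchanged. With its own test at the same thresholds, the paper reported many more changed transcripts. At an unadjusted p under 0.05, 0 of the 10 passed, against 10.7% of all genes. Both DKO libraries were below both controls for 2 of the 10 (Pard6b and Crb3), against 22.6% of all genes, and above both for 1 of the 10 (Dlg1), against 20.8%. Neither count is above what the share of all genes gives for 10 genes. The 95% interval of the fold change stayed within 2-fold in either direction for 10 of 10 polarity genes, against 70.4% of all genes. The median log2 fold change of the 10 was 0.039 and the median of its size was 0.047, against -0.0092 and 0.20 over all genes. The genes tested include many of low level, with a lower quartile of 1.16 FPKM, while each of the 10 was above their median of 8.27 FPKM. Genes matched for level were not compared, so these shares do not show that the 10 were unusually steady.

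The spread between libraries of 1 group was as large as most of these differences. For 8 of the 10 genes the difference of the group means was smaller than the larger range within a group. The exceptions were Pard6b and Crb3. The median difference between the 2 controls was 0.16 in size on the log2 scale, against 0.063 between the 2 DKO libraries, and 8 of the 10 genes differed more between the controls. Control replicate 1 was below control replicate 2 for 7 of the 10.

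**Figure D2:**
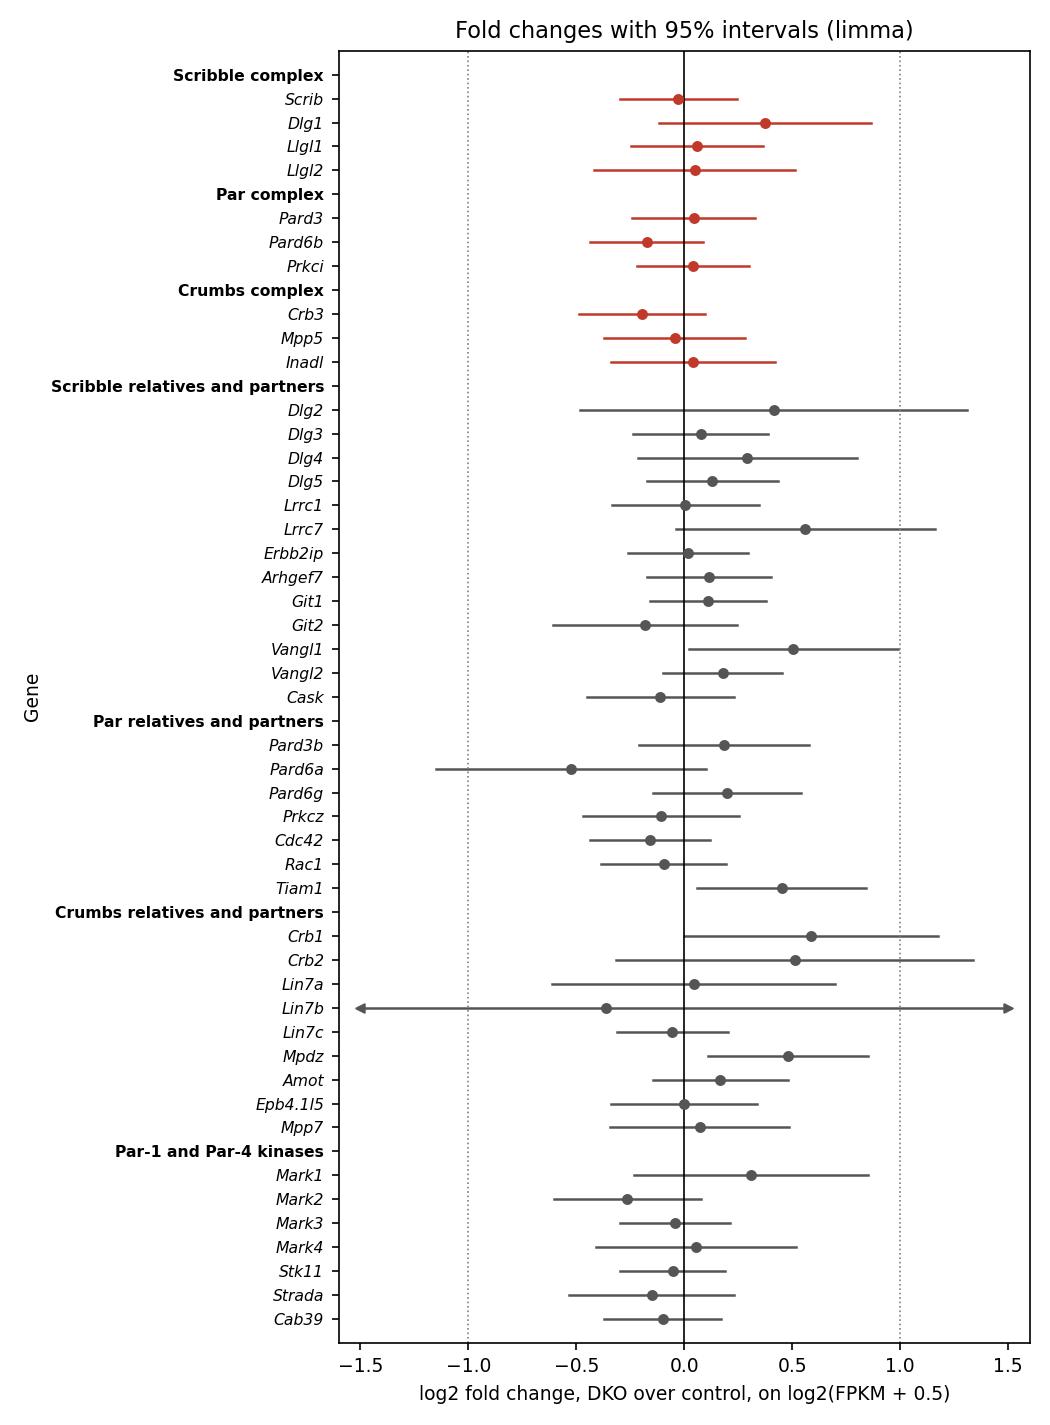
Log2 fold change of DKO over control on log2(FPKM + 0.5) (horizontal axis), with 95% intervals from limma, for the 10 polarity genes (red) and 36 relatives and partners (gray), with dotted lines at a 2-fold difference and arrows where an interval leaves the plot. Each red interval includes 0 and lies within the dotted lines, while the gray intervals of Vangl1, Tiam1, Crb1 and Mpdz lie above 0.

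Most polarity proteins have paralogs, so the share of each gene in the summed FPKM of its family was compared, a measure that does not depend on how the libraries were scaled. There were 8 such families, with 7 of the 8 led by the gene named here in every library. The exception was the family of Scrib, in which Erbb2ip, a basolateral scaffold also known as Erbin, made up 51.6% to 54.3% of the sum and Scrib 26.9% to 29.6%. Lrrc1 made up most of the rest at 16.2 to 19.1 FPKM, while Lrrc7 was under 1 FPKM in each library (0.76 and 0.62 FPKM in DKO, 0.30 and 0.31 FPKM in controls).

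The share of Crb3 among the Crumbs genes was lower in DKO. It was 85.0% and 81.6% in DKO replicates 1 and 2 and 89.1% and 91.1% in control replicates 1 and 2, a difference of the means of -6.78 percentage points. Crb3 itself was lower in these libraries and its paralogs were higher. Crb1, best known from photoreceptors, was at 3.98 and 4.89 FPKM in DKO and at 3.07 and 2.49 FPKM in controls. Crb2, known from podocytes among other cells, was at 1.65 and 3.05 FPKM in DKO and at 1.41 and 1.47 FPKM in controls. Both stayed low beside Crb3, and each was higher in both DKO libraries than in either control.

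Inadl was compared with Mpdz, also known as Mupp1, its multi-PDZ paralog. The share of Inadl was 54.0% and 53.2% in DKO and 55.5% and 66.6% in controls, a difference of the means of -7.47 percentage points. Control replicate 2 set most of this difference, which was -1.94 points without it and -13.0 points without control replicate 1. The share of Pard3 against Pard3b was 77.4% and 77.0% in DKO and 78.3% and 79.6% in controls. The share of Prkci against the zeta form Prkcz was 77.5% and 79.3% in DKO and 76.3% and 76.8% in controls. Both of these differences were under 2 percentage points, the first lower and the second higher in both DKO libraries.

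The shares of Scrib, Dlg1, Llgl2 and Pard6b overlapped between the groups. Dlg1 made up 43.2% and 45.2% of its family in DKO and 35.8% and 45.9% in controls. Its paralogs Dlg3, Dlg4 and Dlg5 were at 14.1 to 24.2 FPKM, and Dlg2 was under 1 FPKM in each library. Llgl2 made up 61.5% and 58.4% of its pair with Llgl1 in DKO and 55.0% and 65.1% in controls. Pard6b made up 64.7% and 62.7% of its family in DKO and 64.4% and 67.5% in controls. Within that family the share of Pard6g was higher in DKO (27.3% and 27.3% against 21.1% and 22.2%), and that of Pard6a was lower (8.06% and 10.0% against 14.6% and 10.4%).

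For the 4 families with no overlap (Pard3, Crb3 and Inadl lower, Prkci higher), the exact permutation test over the 4 libraries gave p = 0.333, two-sided, which is the smallest that 2 against 2 can give, and 0.667 after adjustment over the 8 families. This exact test cannot reach 0.05 for a single share, so these are descriptions of the libraries. Among the FPKM of all genes tested, 22.6% were below and 20.8% above both controls, so separation of this kind was common.

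**Figure D3:**
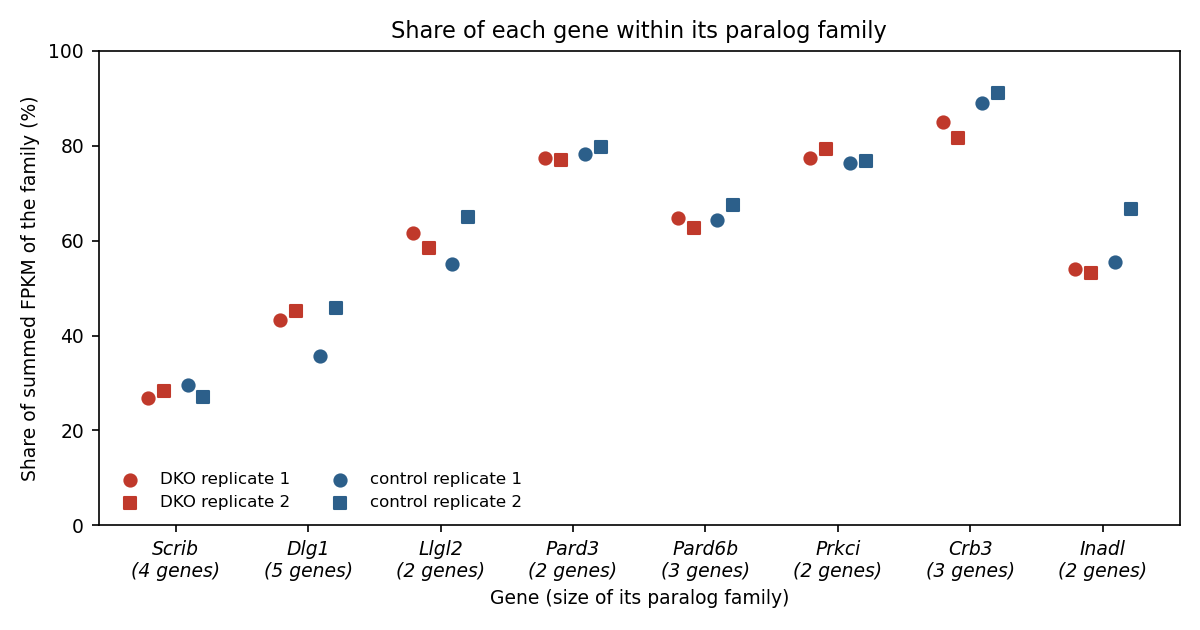
Share of each gene in the summed FPKM of its paralog family, in percent (vertical axis), for the 8 families (horizontal axis) in the 2 DKO libraries (red) and the 2 control libraries (blue). The groups do not overlap for Pard3, Prkci, Crb3 and Inadl, with the widest gap between group means for Inadl (53.6% against 61.1%) and Crb3 (83.3% against 90.1%).

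Beyond the core complexes, 36 relatives and binding partners were examined, and 0 were called changed, by a rule that also left Esrp1 uncalled. At an unadjusted p under 0.05 there were 4, against 10.7% of all genes, a number near that of the background when direction is left aside. All 4 were higher in DKO, whereas of the 2021 such genes among the 18884 tested, 633 were higher and 1388 lower. The partner lists were chosen with earlier results of these data known, so this contrast of direction is a description only. The 4 had an adjusted p of 0.394 or more by limma, and they are named below as values only. Both DKO libraries were above both controls for 14 of the 36, against 20.8% of all genes, and below both for 6, against 22.6%. The median log2 fold change was 0.064, and that of all genes was -0.0092.

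Among the 13 relatives and partners of the Scribble complex, 6 were above both controls (20.8% of all genes) and 0 below (22.6%). The most abundant were Erbb2ip (53.3 and 47.0 FPKM in DKO, 49.2 and 49.7 in controls) and Git1, an adaptor of the Rac exchange factor Arhgef7 (30.0 and 32.7 FPKM against 29.5 and 28.5). Vangl1, a planar polarity membrane protein that binds Scrib, was at 7.30 and 7.18 FPKM in DKO and at 4.43 and 5.53 FPKM in controls. Both DKO libraries were higher, with a log2 fold change of 0.51 (SE 0.19, unadjusted p = 0.0432, adjusted p = 0.455 by limma). Its close relative Vangl2 was at 20.7 and 20.3 FPKM in DKO and at 17.9 and 18.2 FPKM in controls, with a log2 fold change of 0.18 (adjusted p = 0.625).

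The 7 relatives and partners of the Par complex held 3 genes above both controls (20.8% of all genes) and 3 below (22.6%). The most abundant were the small GTPases, Cdc42 at 214 and 209 FPKM in DKO and at 244 and 228 FPKM in controls, and Rac1 at 138 and 142 FPKM in DKO and at 160 and 141 FPKM in controls. Tiam1, the Rac exchange factor that binds Pard3, was at 10.9 and 12.9 FPKM in DKO and at 8.67 and 8.46 FPKM in controls. It was higher in both DKO libraries, with a log2 fold change of 0.45 (SE 0.15, unadjusted p = 0.0319, adjusted p = 0.426 by limma). The paralogs split: Pard3b (8.09 and 9.04 against 7.49 and 7.45 FPKM) and Pard6g (11.4 and 11.5 against 9.57 and 10.2 FPKM) were above both controls. Pard6a (3.37 and 4.21 against 6.63 and 4.80 FPKM) and Prkcz (8.86 and 8.50 against 9.44 and 9.35 FPKM) were below both, though rescaling to TPM turned the fold change of Prkcz positive (log2 0.019).

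Of the 9 relatives and partners of the Crumbs complex, 4 were above both controls (20.8% of all genes) and 0 below (22.6%). Lin7c, an adaptor of Mpp5, was the most abundant (38.6 and 36.2 FPKM in DKO, 39.9 and 37.9 in controls). Mpdz, the next, was at 26.0 and 26.2 FPKM in DKO and at 20.8 and 16.6 FPKM in controls. It had the smallest adjusted p of the 36, with a log2 fold change of 0.48 (SE 0.14, 95% interval 0.11 to 0.85, unadjusted p = 0.0210, adjusted p = 0.394 by limma). The log2 fold change of Crb1 was 0.59 (SE 0.23, unadjusted p = 0.0497, adjusted p = 0.466). Lin7b was listed at 0 in control replicate 2 and at 2.78 FPKM in control replicate 1, and its fold change was imprecise (log2 -0.36, 95% interval -2.98 to 2.25).

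The Par-1 and Par-4 kinases set the basolateral side and couple polarity to cell metabolism. The list of 7 genes held Mark1, Mark2, Mark3, Mark4 and Stk11, with Strada and Cab39 added to these kinases. Of the 7, 3 were below both controls (22.6% of all genes), Strada among them, and 1 above (20.8%). Stk11, the Par-4 homolog also known as Lkb1, was at 46.0 and 43.5 FPKM in DKO and at 46.6 and 46.3 FPKM in controls, a difference that turned positive after rescaling to TPM (log2 0.078). Mark2, a Par-1 kinase, was at 41.5 and 38.6 FPKM in DKO and at 53.1 and 43.7 FPKM in controls, with a log2 fold change of -0.26 (95% interval -0.60 to 0.076, adjusted p = 0.558). No gene of this list reached an unadjusted p under 0.05.

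Because markers of other cell types differed between the libraries, each polarity gene was also set against epithelial genes of the same library, as a percentage of the geometric mean of Cdh1, Epcam, Krt8 and Krt18. That reference was itself uneven, at 132 and 137 FPKM in DKO and at 108 and 157 FPKM in controls. Dlg1 was at 35.8% and 34.4% of the reference in DKO and at 28.1% and 27.8% in controls. On this scale the 2 controls were alike and both were below DKO. Crb3 was at 24.2% and 25.6% in DKO and at 33.9% and 25.8% in controls, so that it stayed below both controls but only just below control replicate 2. For the other 8 genes, Pard6b among them, the groups overlapped. In the fit across all genes with this scaling, Dlg1 had a log2 fold change of 0.33 and did not pass the test (unadjusted p = 0.248).

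**Figure D4:**
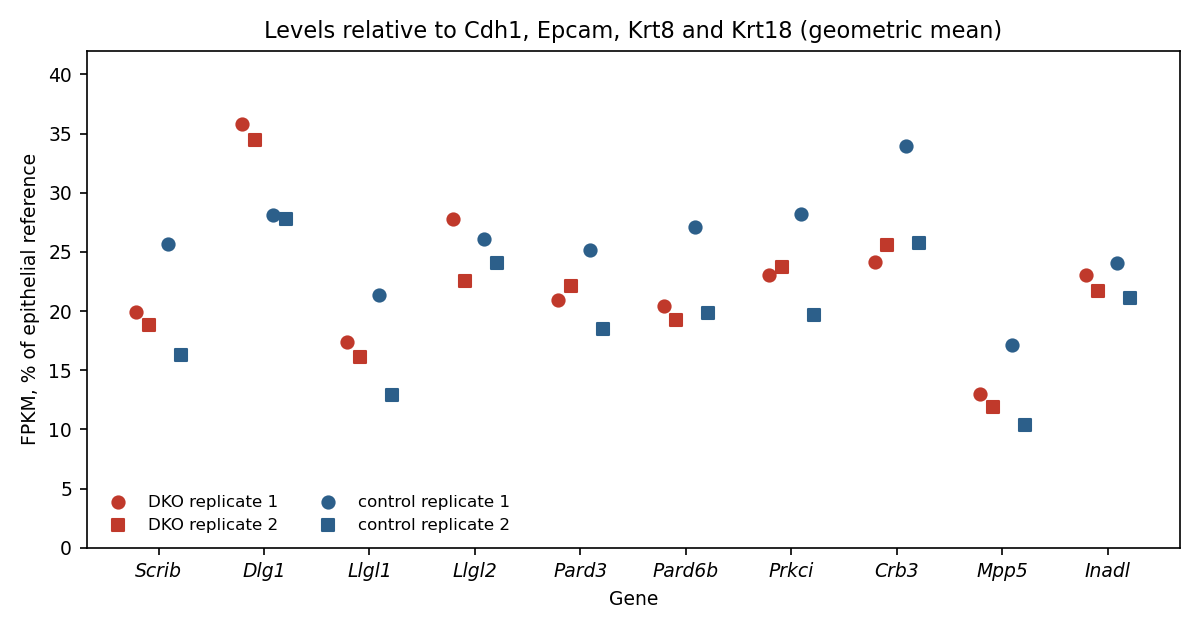
FPKM of each polarity gene as a percentage of the geometric mean of Cdh1, Epcam, Krt8 and Krt18 in the same library (vertical axis), for the 2 DKO libraries (red) and the 2 control libraries (blue). Dlg1 is above both controls in both DKO libraries and Crb3 is below both. The gaps between the blue points include the difference of the reference itself, at 108 and 157 FPKM in control replicates 1 and 2. Prkci, for example, was at 30.4 and 31.0 FPKM in the controls and is at 28.2% and 19.7% here.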

How the data were processed

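RNA-Seq was done on poly(A)-selected, strand-specific paired-end libraries. Reads were mapped by the authors to mm10 and Ensembl release 72 transcripts, and the deposited values are FPKM. TopHat 1.4.1 and Cuffdiff 2.2.1 are named in the submitters' processing notes. The scaling between libraries is not stated there. FPKM carry no read counts, so no counting intervals are given. The deposited group averages were not used, and 2 empty lines of the table were left out.

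The test was limma 3.58.1 (R 4.3.3) on log2(FPKM + 0.5), two-sided, with an expression-dependent variance trend, over 18884 genes with a group average above 0.1 FPKM. This pseudocount understates fold changes of low genes. P-values were adjusted over all genes by Benjamini-Hochberg. The procedure was tested on simulated data whose libraries all varied alike at a given level. The shallower depth of control replicate 1 was not simulated, so that test does not cover it. With 2 libraries a group, the p-values measure the spread between these pools. Figures were drawn with Python 3.11.15 and matplotlib 3.10.9. Annotation came from GENCODE M21, later than that of the authors. Splicing within the member genes is not reported here.

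Members and gene lists were chosen with earlier results of these data known. Named were all 10 members, the paralogs, and of each partner list the 2 highest genes and those at an unadjusted p under 0.05. Of each cell type list the 2 highest were named. Vangl2, Lin7b and the cell type markers outside this rule were picked after seeing their values. The alternatives used pseudocounts of 0.1 and 1, no filter or a minimum of 1 FPKM, TPM, median-ratio or epithelial reference scaling, no variance trend, a replicate block, or left out each library in turn.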

Additional observations from a re-analysis of the deposited data

How the results depend on the processing

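None of the 10 polarity genes and none of the 36 partners was called under any of the 13 alternatives. The 4 calls over all genes became 1 with no filter, 2 with no variance trend, 8 with scaling to the epithelial reference genes and 16 with the replicate block (10 lower, 6 higher), and 0 to 0 with a library left out. A left-out library leaves a lone sample, assumed to vary like the other group. Genes at an unadjusted p under 0.05 then numbered 672 to 4531. Rescaling to TPM moved the median log2 fold change of all genes to 0.11, and Scrib (0.10) and Mpp5 (0.086) turned positive with it. Scaling to the epithelial reference genes turned Llgl2 (-0.0012), Pard3 (-0.0048), Prkci (-0.012) and Inadl (-0.0096) negative. With a library left out in turn, the log2 fold change ran from -0.081 to 0.026 for Scrib, -0.031 to 0.15 for Llgl1, -0.16 to 0.26 for Llgl2, -0.020 to 0.11 for Pard3, -0.0080 to 0.085 for Prkci, -0.13 to 0.046 for Mpp5 and -0.13 to 0.21 for Inadl. Dlg1, Pard6b and Crb3 kept their direction under every alternative run. Their group values did not overlap, so only TPM, median-ratio and epithelial reference scaling could have turned it. The other alternatives could not, and their outcome is no check of direction. The size moved, from 0.12 to 0.64 for Dlg1, -0.22 to -0.044 for Pard6b and -0.27 to -0.065 for Crb3, the last 2 being smallest with TPM. Families with no overlap of paralog shares numbered 5 to 7 with a library left out, against 4. Leaving out a library cannot undo a separation, so this count could only stay or rise. The replicate number is not stated to mark a shared litter or day, and same-numbered libraries deviated together only weakly (r = 0.10 across genes), so the block of replicate numbers was not taken as a pairing. Under that block Dlg1 had an adjusted p of 0.436. The causes of these shifts were not tested.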
